A study of Homo sapiens with 12 samples.

Results

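The 50 genes described here belong to the cell cycle and DNA replication programme, 26 to replication and its start and 24 to mitosis. They were taken by gene symbol from a list of such genes, out of 20003 genes with a usable symbol in each of the 12 samples. All 50 had a value in every sample and passed the filter on low values in both cell lines. NB4 cells derive from acute promyelocytic leukemia and carry PML-RARα, and Kasumi-1 cells derive from acute myeloid leukemia and carry AML1-ETO, the product of the t(8;21) translocation. From each line, 3 control samples that received DMSO and 3 samples that received OGP46 at 1 μM were sequenced as mRNA, and the labels give an incubation of 48 h, while a figure legend of the study gives a longer one. OGP46 is a kaurene diterpenoid made from oridonin, a plant compound. The study describes its experiments as repeated independently, but no label ties the samples of a group to separate cultures, so p-values measure the spread between these samples, which may be technical.

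Cells copy their DNA in S phase and divide it in mitosis, and the genes for both are transcribed in turn. Replication genes such as the MCM helicase subunits are switched on around the entry into S phase, largely through E2F transcription factors. Mitosis genes such as those of the B cyclins and the spindle kinases follow later, through the cell cycle homology region (CHR) and CCAAT elements of their promoters. In G1 and G0 both programmes are low, so their transcripts are widely read as a sign of how many cells of a culture divide. In these bulk samples, fewer cycling cells and less RNA of these genes per cell cannot be told apart. The question of the comparison with OGP46 was whether these transcripts moved together with the compound.

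Among these genes, the promoters of replication and mitosis genes differed in the elements they hold. RefSeq promoter windows on GRCh38.p14, from 250 bases before to 50 bases after the start of the gene, were matched by symbol for 41 of the 50 genes. On both strands, the windows were searched for an E2F element (TTTCCCGC, TTTGGCGC, TTTCGCGC or TTTGCCGC), a CHR (TTTGAA or TTCGAA) and CCAAT. An E2F element stood in 16 of 23 replication windows and in 2 of 18 mitosis windows, against 3.33% of all 27305 promoter windows. The CHR letters stood in 12 of 18 mitosis windows and in 2 of 23 replication windows, against 16.6% of all. CCAAT stood in 15 of 18 mitosis windows and 13 of 23 replication windows, against 35.7% of all. Of further genes of the same processes, an E2F element stood in 9 of 33 replication windows and the CHR letters in 33 of 44 mitosis windows. A match is a description of the letters, and binding was not measured here.

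Stretches of 120 bases upstream of 8 of these genes are shown, for 4 replication and 4 mitosis genes whose values are given in the text, because they show where these letters stand. None of these bases lies in an exon of GENCODE release 29. The windows of MCM6, E2F2, CDC20 and MKI67 were not among the 33 that passed the check of the start. The replication genes are MCM6 (chr2:135876444-135876563, minus strand), E2F1 (chr20:33686405-33686524, minus strand), E2F2 (chr1:23531234-23531353, minus strand) and PCNA (chr20:5126627-5126746, minus strand). The mitosis genes are CDC20 (chr1:43358835-43358954, plus strand), MKI67 (chr10:128126424-128126543, minus strand), TOP2A (chr17:40417951-40418070, minus strand) and CENPE (chr4:103198410-103198529, minus strand). Each is written 5′ to 3′ in the direction of transcription, with matches to any of the elements in capitals.
MCM6: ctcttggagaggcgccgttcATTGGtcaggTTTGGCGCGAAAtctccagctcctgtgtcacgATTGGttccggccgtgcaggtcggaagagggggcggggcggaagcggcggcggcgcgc
E2F1: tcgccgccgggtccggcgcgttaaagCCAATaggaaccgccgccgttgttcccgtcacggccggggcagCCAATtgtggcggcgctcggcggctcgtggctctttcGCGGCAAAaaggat
E2F2: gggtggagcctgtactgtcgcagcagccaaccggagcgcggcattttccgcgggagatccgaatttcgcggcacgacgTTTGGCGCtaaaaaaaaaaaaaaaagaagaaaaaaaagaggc
PCNA: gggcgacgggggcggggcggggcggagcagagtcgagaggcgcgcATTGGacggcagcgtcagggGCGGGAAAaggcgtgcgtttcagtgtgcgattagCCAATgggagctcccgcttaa
CDC20: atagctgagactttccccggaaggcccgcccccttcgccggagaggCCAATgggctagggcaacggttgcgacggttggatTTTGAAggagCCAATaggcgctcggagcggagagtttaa
MKI67: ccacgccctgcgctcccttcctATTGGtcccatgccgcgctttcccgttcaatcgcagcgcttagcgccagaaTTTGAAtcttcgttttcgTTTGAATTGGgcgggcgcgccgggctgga
TOP2A: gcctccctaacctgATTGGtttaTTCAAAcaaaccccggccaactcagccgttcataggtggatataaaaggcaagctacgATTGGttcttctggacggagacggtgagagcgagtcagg
CENPE: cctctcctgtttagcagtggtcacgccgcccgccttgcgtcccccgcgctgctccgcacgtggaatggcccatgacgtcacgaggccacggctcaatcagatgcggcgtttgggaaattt
In the MCM6 stretch, 2 E2F matches on opposite strands overlap each other, and in the MKI67 stretch a CHR match and a CCAAT match share a base. The 4 replication stretches each hold an E2F match and none holds the CHR letters. The full window of MCM6 does hold them, outside the stretch shown, and is 1 of the 2 replication windows counted above. CDC20, MKI67 and TOP2A hold a CHR match beside CCAAT, and the CENPE stretch holds none of the elements.

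The labels of the lines were checked against marker genes. The summed FPKM of 5 Kasumi-1 markers, CD34 and KIT among them, lay between 0.56 and 3.6 in the NB4 samples and between 236.5 and 299 in the Kasumi-1 samples. Of 4 genes listed as NB4 markers, only 2 were higher in NB4 controls than in Kasumi-1 controls, and FGF13 was listed at 0 in every NB4 sample. Of 10 markers of other blood cells, 7 stayed below 1 FPKM in every sample, the exceptions being CD3D, CD79A and NCAM1. NB4 control 3 held the most signal of Kasumi-1 genes, an estimated 0.95% against 0.015% to 0.37% in the other NB4 samples. The FPKM of all genes summed to 248207 to 256268 in NB4 controls and to 263341 to 291523 in NB4 cells with OGP46, so the sums did not overlap. In Kasumi-1 cells they lay between 279802 and 310262 with no separation of the treatments. In NB4 cells the median of all genes was 0.18 higher with OGP46 on the log2 scale, which median centring brought to -0.01, and changes are therefore also given relative to that median.

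In the controls, 37 of the 50 genes had a higher mean log2 level in NB4 than in Kasumi-1 cells and 13 had a lower one. Together they made up 0.85% to 0.91% of the summed FPKM in every NB4 sample and 0.50% to 0.56% in every Kasumi-1 sample, with or without OGP46. On the log2(FPKM + 0.1) scale, the median difference of NB4 from Kasumi-1 controls was 0.41 over the 50 genes and -0.10 over all 12302 genes tested. By limma, at an adjusted p below 0.05 and a log2 difference of at least 0.58 in size, 15 of the 50 genes were higher and 3 were lower in NB4 controls. Among all genes tested, 22.7% were higher and 29.7% were lower by the same rule. With no minimum difference, 33 of the 50 genes were higher and 6 were lower, beside 33.1% and 41.4% of all genes. With TPM scaling, 27 genes of the group were higher and 2 were lower, and over all genes the split turned from 2790 higher and 3659 lower to 3585 and 3004.

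Among the replication genes, the level was highest for PCNA, the sliding clamp of the DNA polymerases, at 274 ± 15.5 FPKM (SD, n = 3) in NB4 controls and 149 ± 11.7 FPKM (SD, n = 3) in Kasumi-1 controls. MCM7, a subunit of the MCM2-7 helicase, stood at 148 ± 6.75 FPKM (SD, n = 3) and 74.2 ± 6.07 FPKM (SD, n = 3). TYMS, thymidylate synthase, followed in NB4 controls and ranked between PCNA and MCM7 in Kasumi-1 controls, at 126 ± 6.63 and 103 ± 10.6 FPKM (SD, n = 3 each). The lowest in both lines were E2F2, a transcription factor of the E2F family, and CDC25C, a phosphatase that activates CDK1. E2F2 stood at 3.64 ± 0.391 FPKM in NB4 and 2.97 ± 0.232 FPKM in Kasumi-1 controls (SD, n = 3 each), and CDC25C at 2.92 ± 0.386 and 3.15 ± 0.266 FPKM (SD, n = 3 each). Next from the bottom were CCNE2 in NB4 controls, at 4.08 ± 0.514 FPKM (SD, n = 3), and the clamp loader subunit RFC3 in Kasumi-1 controls, at 3.91 ± 0.239 FPKM (SD, n = 3).

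**Figure D1:**
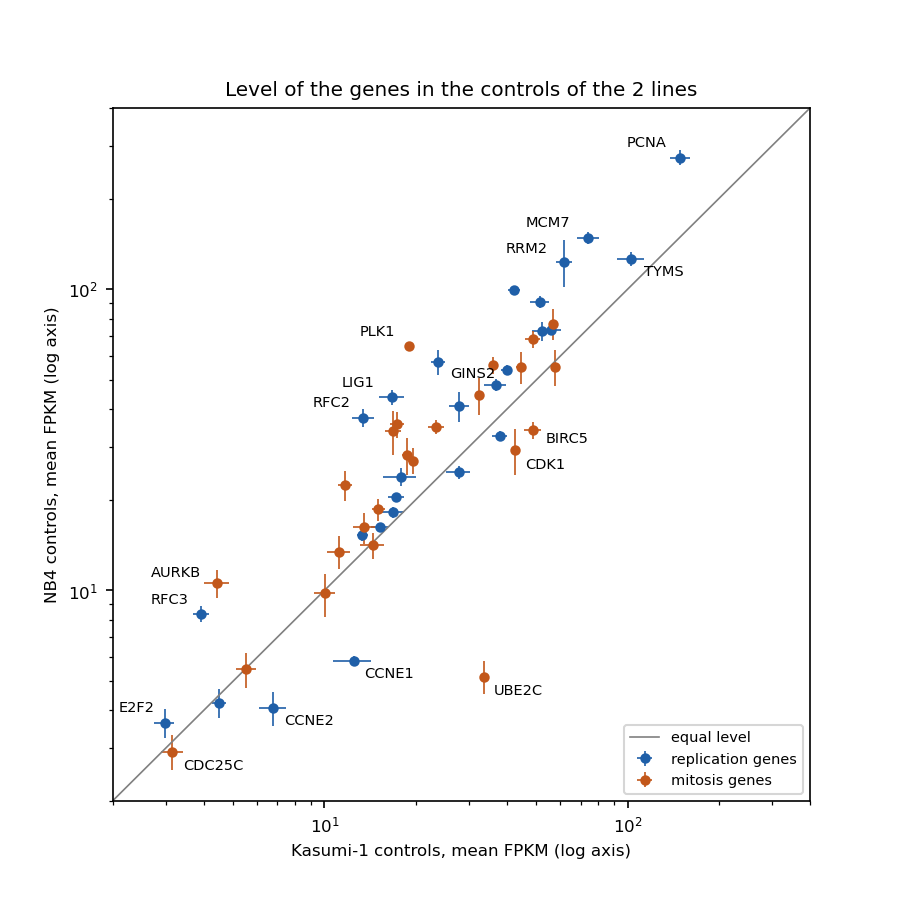
Mean FPKM of the 50 genes in the NB4 controls (vertical, log axis) against the Kasumi-1 controls (horizontal, log axis), with bars of 1 SD over 3 samples. Most points lie above the line of equal level, with PLK1, RFC2 and LIG1 farthest above it and UBE2C, CCNE1 and CCNE2 farthest below.

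By role, 4 of 11 helicase and origin licensing genes (MCM3, MCM6, MCM7 and GINS2) were higher in NB4 controls, and none was lower. The shares of all genes by this rule were 22.7% higher and 29.7% lower. Of the 7 polymerase, clamp and ligation genes, PCNA, RFC2, RFC3 and LIG1 were higher. RFC2, a subunit of the loader that places the clamp on DNA, stood at 39.1, 38.9 and 34.5 FPKM in the NB4 controls and at 12.5, 13.0 and 14.7 FPKM in the Kasumi-1 controls. Its groups did not overlap and the difference was 2.79-fold (log2 1.48, SE 0.087, adjusted p = 6.93e-07). MCM6, another helicase subunit, stood at 99.9, 101 and 98.2 FPKM in NB4 controls and at 39.9, 43.5 and 43.1 FPKM in Kasumi-1 controls. LIG1, the ligase that joins the fragments of the lagging strand, was 2.62-fold higher, and GINS2, a partner of the helicase, was 2.42-fold higher. RRM2, the small subunit of ribonucleotide reductase, was the only 1 of 3 nucleotide supply genes past the threshold, at 1.98-fold.

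Of the 5 genes of G1/S control, none was higher and the E-type cyclins, which activate CDK2 for the entry into S phase, were lower in NB4 controls. CCNE1 stood at 5.82, 5.61 and 6.04 FPKM in NB4 controls and at 11.1, 14.5 and 11.8 FPKM in Kasumi-1 controls. Every NB4 value lay below every Kasumi-1 value, a 2.11-fold lower level (adjusted p = 1.94e-05). CCNE2 was 1.65-fold lower (adjusted p = 0.000603), and with TPM scaling its log2 difference of -0.52 missed the minimum size.

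Of the 24 mitosis genes, 6 were higher in NB4 controls and 1 was lower, beside 22.7% and 29.7% of all genes. The share of mitosis genes that were higher was thus close to that of all genes. PLK1, a kinase of mitotic entry and spindle assembly, had the largest difference of the higher genes. It stood at 67.4, 63.7 and 62.8 FPKM in NB4 controls against 18.7, 19.6 and 18.9 FPKM in Kasumi-1 controls, which is 3.37-fold higher (log2 1.75, SE 0.064, adjusted p = 6.77e-08). The other mitosis genes past the threshold were AURKB, AURKA, NUSAP1, BUB1B and CCNA2, with log2 differences between 0.64 and 1.24. AURKB, the kinase of the chromosomal passenger complex, was 2.36-fold higher.

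UBE2C went the other way. This gene codes for the ubiquitin-conjugating enzyme that works with the anaphase-promoting complex to mark mitotic cyclins for breakdown. It stood at 5.94, 4.73 and 4.87 FPKM in NB4 controls and at 32.6, 33.9 and 34.0 FPKM in Kasumi-1 controls, 6.40-fold lower in NB4 (log2 -2.68, SE 0.096, adjusted p = 6.26e-08). CDC20, the activator of the same complex, was 1.40-fold higher in NB4 controls, under the minimum size. CDK1, the kinase of mitotic entry, and BIRC5, the survivin subunit of the passenger complex, were 1.47-fold and 1.43-fold lower in NB4, also under the minimum size.

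With OGP46, none of the 50 genes was up- or down-regulated in NB4 cells by limma at an adjusted p below 0.05 and a log2 change of at least 0.58, which is 1.49-fold. Among all 11750 genes tested, 1.45% were up-regulated and 0.111% were down-regulated. These 170 and 13 genes became 0 and 0 with median centring, TPM scaling or quantile normalization, and 4 and 0 with no filter on low values. Without adjustment, 19 of the 50 genes had a p below 0.05, all of them higher, beside 27.5% higher and 1.61% lower of all genes tested. The log2 changes of the genes ran from -0.15 (MCM7) to 0.52 (CCNE2), with a median of 0.17 beside 0.18 for all genes. The 95% interval lay above a decrease of 0.58 for all 50 genes, and within 0.58 on both sides for 41 of them. Of all 11750 genes tested, 10505 had an interval above that decrease and 7028 had one within 0.58 on both sides. Among the 50 genes the lowest limit was -0.34 and the highest was 0.92. A decrease of 1.49-fold thus lay outside the interval of each of the 50, and an increase of that size did not for 9. Of all genes tested, 7812 had an interval below that increase.

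The median changes of the replication and the mitosis genes lay on different sides of that of all genes in NB4 cells. The median change of the replication genes was 0.10, which is 0.07 below that of all genes, and 20 of 26 lay below it. The median change of the mitosis genes was 0.25, which is 0.08 above it, and 17 of 24 lay above. The pairs of samples with the same number differed in this. In pair 1 both medians lay 0.01 above that of all genes, while in pairs 2 and 3 the replication genes lay 0.09 and 0.08 below it and the mitosis genes 0.09 and 0.12 above it. The median of the mitosis genes was 0.00, 0.19 and 0.20 higher than that of the replication genes in pairs 1, 2 and 3. Without NB4 control 3 the median of the mitosis genes was 0.01 above that of all genes, and without NB4 control 1 it was 0.14 above.

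**Figure D2:**
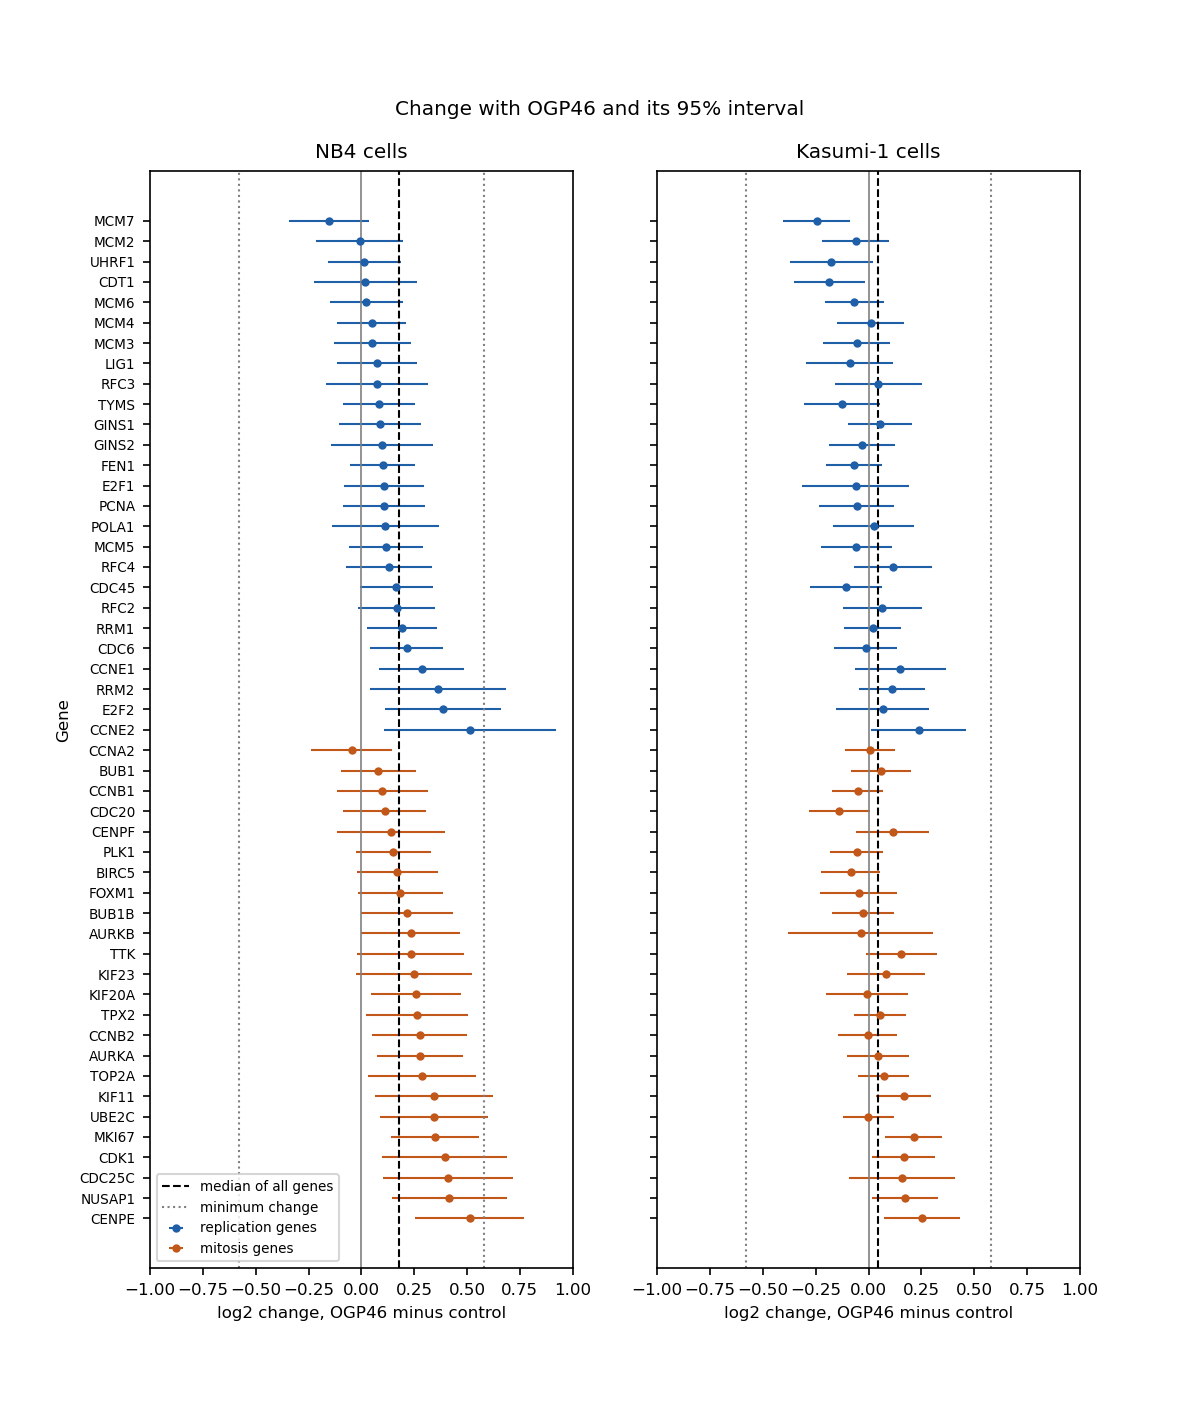
Log2 change with OGP46 (points, from log2(FPKM + 0.1)) and its 95% interval (bars) for each gene in NB4 and Kasumi-1 cells, 3 samples against 3, with the median of all genes (dashed) and the minimum change of 0.58 (dotted). No interval reaches below -0.58 in either line. In NB4 cells the median of the mitosis genes (0.25) lies to the right of that of the replication genes (0.10). Their ranges overlap, from -0.05 to 0.51 and from -0.15 to 0.52.

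The helicase and licensing genes were the lowest group. Of the 11, 10 lay below the median of all genes in NB4 cells, with a median of 0.05. MCM7 stood at 141, 154 and 149.9 FPKM in the NB4 controls and at 121, 139 and 141 FPKM with OGP46. All 3 values with OGP46 lay below all 3 controls, the log2 change was -0.15 (95% interval -0.34 to 0.04), and the adjusted p was 0.247. MCM6 stood at 94.7, 101 and 109 FPKM in NB4 cells with OGP46, around its controls, with a log2 change of 0.02 (95% interval -0.15 to 0.20). CDC6, which loads the helicase at origins, was the 1 gene of the group above the median of all genes, at 0.21. All 7 polymerase, clamp and ligation genes lay below the median of all genes, between 0.07 and 0.17. PCNA stood at 289.6, 273 and 259 FPKM in the controls and at 284, 278 and 323 FPKM with OGP46, overlapping groups with a log2 change of 0.11 (95% interval -0.09 to 0.30). The sign of this change turned under median centring (-0.09), TPM scaling (-0.02) and quantile normalization (-0.03).

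The highest changes of the replication genes in NB4 cells were those of CCNE2, E2F2, RRM2 and CCNE1. CCNE2 stood at 4.45, 4.29 and 3.49 FPKM in the NB4 controls and at 7.11, 6.25 and 4.47 FPKM with OGP46. The lowest value with OGP46 was just above the highest control, and the log2 change was 0.52 (95% interval 0.11 to 0.92, adjusted p = 0.112). E2F2 stood at 3.45, 4.08 and 3.37 FPKM in the controls and at 5.05, 4.98 and 4.28 FPKM with OGP46, again without overlap, with a log2 change of 0.38 (adjusted p = 0.095). E2F1, the other activator E2F of the list, stood at 23.1, 22.8 and 25.8 FPKM in the controls and at 25.8, 24.6 and 26.8 FPKM with OGP46, with overlapping groups and a log2 change of 0.11. RRM2 stood at 144, 126 and 100.3 FPKM in the controls and at 173, 163 and 138 FPKM with OGP46. Here the groups overlapped, since control 1 was higher than OGP46 sample 3, and the log2 change was 0.36 (adjusted p = 0.14).

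CENPE had the largest change of the mitosis genes in NB4 cells, and its adjusted p was the smallest of the 50 genes. It codes for a kinesin motor at the kinetochore. It stood at 6.27, 5.31 and 4.83 FPKM in the controls and at 7.97, 7.48 and 7.96 FPKM with OGP46, a log2 change of 0.51 (95% interval 0.25 to 0.77, adjusted p = 0.0567). MKI67, the proliferation marker Ki-67, which coats mitotic chromosomes, stood at 29.9, 26.6 and 24.6 FPKM in the controls and at 35.6, 34.9 and 32.6 FPKM with OGP46. Every value with OGP46 was above every control, with a log2 change of 0.35 (adjusted p = 0.0723). CDK1 stood at 34.4, 29.1 and 24.3 FPKM in the controls and at 37.6, 35.4 and 41.6 FPKM with OGP46, with a log2 change of 0.39 (adjusted p = 0.103). NUSAP1, a spindle protein, stood at 40.4, 30.7 and 30.5 FPKM in the controls and at 45.9, 41.9 and 46.8 FPKM with OGP46, with a log2 change of 0.42 (adjusted p = 0.0825). TOP2A, the topoisomerase that untangles sister chromatids, ranged from 49.8 to 64 FPKM in the controls and from 61 to 70.7 FPKM with OGP46, with a log2 change of 0.29 (adjusted p = 0.138). CCNA2, cyclin A2, had the lowest change of the mitosis genes, with 56.6, 59.1 and 52.2 FPKM in the controls and 50.3, 55.5 and 56.8 FPKM with OGP46. Its groups overlapped, with a log2 change of -0.05 (95% interval -0.24 to 0.14).

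The samples of a group differed among themselves in the same genes. NB4 control 1 was the highest control for 22 of 24 mitosis genes and NB4 control 3 was the lowest for 19 of them. All genes moved the same way by less. Relative to the mean of the controls, their median was 0.04 in control 1 and -0.04 in control 3, beside 0.17 and -0.13 for the mitosis genes. NB4 control 3 was also the sample with the most signal of Kasumi-1 genes and the smallest FPKM sum, and the part of either in these values was not tested. The median coefficient of variation of the mitosis genes was 11.7% in the NB4 controls and 4.93% in NB4 cells with OGP46. For 19 of the 50 genes, all 3 NB4 samples with OGP46 lay above all 3 controls, and for MCM7 alone they lay below. The same was true of 32.7% and 1.91% of all genes tested. After median centring, the counts were 1 above and 8 below, beside 9.74% and 11.1% of all genes.

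**Figure D3:**
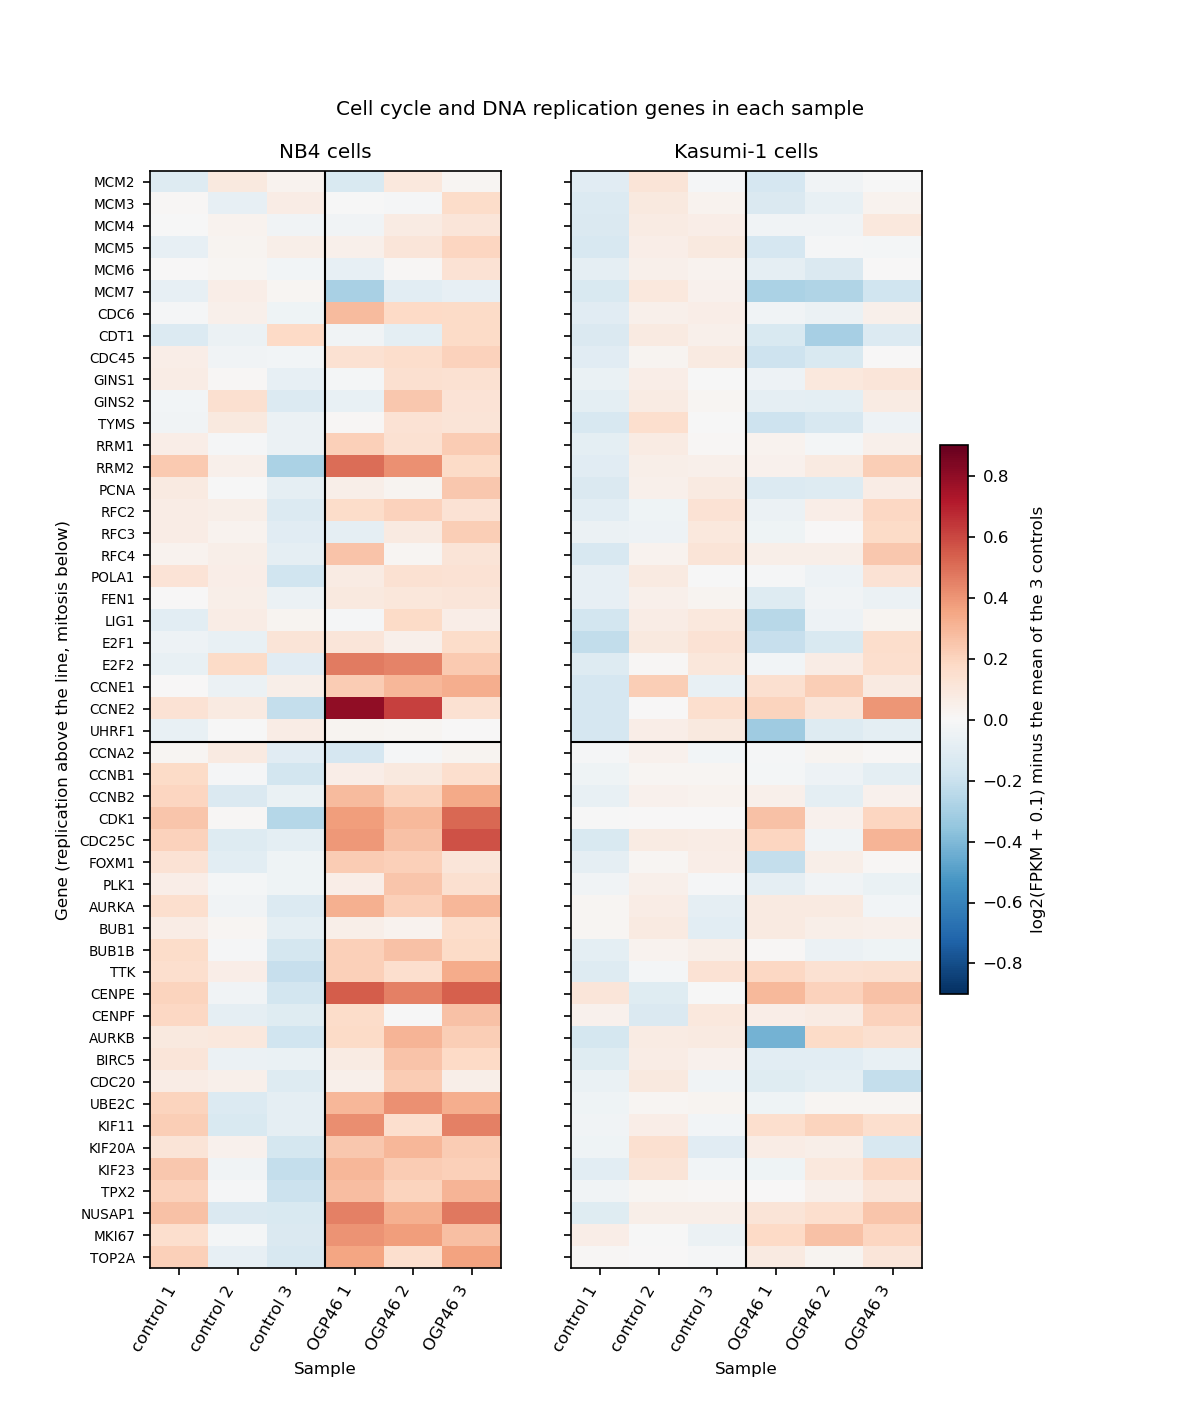
Each cell shows log2(FPKM + 0.1) of a gene in a sample minus the mean of the 3 controls of that line, red for higher and blue for lower, with replication genes above the line and mitosis genes below. NB4 control 1 is redder than control 3 in the mitosis genes, the NB4 samples with OGP46 are mostly red there, and MCM7 is blue with OGP46 in both lines.

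With a replicate block, which pairs the samples of the same number, none of the 50 genes passed the threshold with the minimum change either, while 595 of all genes were up-regulated and 135 were down-regulated in NB4 cells. With the block and no minimum change, 14 of the 50 genes had an adjusted p below 0.05, all of them higher with OGP46. Of all genes tested, 21% were higher and 1.88% were lower by this rule. The 14 genes were RRM2, E2F2, CCNE1 and CCNE2 among the replication genes and CCNB2, CDK1, CDC25C, AURKA, CENPE, UBE2C, KIF11, NUSAP1, MKI67 and TOP2A among the mitosis genes. The adjusted p with the block was 0.00561 for CENPE, 0.00567 for CCNE2, 0.00754 for RRM2, 0.0105 for NUSAP1, 0.0129 for MKI67, 0.0229 for E2F2 and 0.0283 for CDK1. When the samples were median centred as well, CENPE (0.32), NUSAP1 (0.22) and RRM2 (0.17) were higher and MCM7 (-0.35) and CCNA2 (-0.24) were lower on the log2 scale. By that rule, 5.95% of all genes were higher and 6.49% were lower, and with the minimum change the 595 and 135 genes became 224 and 168.

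In Kasumi-1 cells, again none of the 50 genes was up- or down-regulated with OGP46. Of the 11835 genes tested, 0.0169% were up-regulated and 0.0169% were down-regulated, which is 2 genes each, and these counts became 13 and 5 with TPM scaling and 3 and 13 with median centring. Without adjustment, 6 of the 50 genes had a p below 0.05 in the higher and 2 in the lower direction by limma, beside 12% and 3.65% of all genes tested. The changes ran from -0.24 (MCM7) to 0.25 (CENPE), and the 95% interval lay within 0.58 on both sides for all 50 genes. The same was true of 9577 of all 11835 genes tested. The median change of the replication genes was -0.04, which is 0.09 below that of all genes, with 18 of 26 below it. That of the mitosis genes was 0.05, within 0.01 of that of all genes, with 12 of 24 above it.

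MCM7 was the lowest replication gene in Kasumi-1 cells too. It stood at 67.4, 79.1 and 76.2 FPKM in the controls and at 60.9, 61.4 and 65.3 FPKM with OGP46. Its groups did not overlap, and the log2 change was -0.24 (95% interval -0.40 to -0.09, adjusted p = 0.158). The highest replication gene was CCNE2, at 6.07, 6.77 and 7.50 FPKM in the controls and 7.79, 7.31 and 8.92 FPKM with OGP46, with a log2 change of 0.24 (adjusted p = 0.296). Its groups overlapped, since control 3 was above OGP46 sample 2.

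Of the mitosis genes, CENPE was the highest and CDC20 the lowest in Kasumi-1 cells. CENPE stood at 5.96, 5.12 and 5.50 FPKM in the controls and at 6.78, 6.38 and 6.64 FPKM with OGP46, with a log2 change of 0.25 (95% interval 0.07 to 0.43, adjusted p = 0.182). CDC20 stood at 46.5, 51.8 and 47.6 FPKM in the controls and at 45, 45.7 and 41.8 FPKM with OGP46, a log2 change of -0.14 (95% interval -0.28 to 0.01). In both genes the groups did not overlap. MKI67 had the smallest adjusted p of the 50 genes, at 0.149, with 20.4, 19.6 and 18.9 FPKM in the controls and 22.2, 23.6 and 22.4 FPKM with OGP46.

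All 3 Kasumi-1 samples with OGP46 lay above all controls for 7 of the 50 genes, all of them mitosis genes, and below for MCM7 and CDC20. Among all genes tested these shares were 17.4% and 5.23%. After median centring the counts were 3 above and 13 below, beside 9.3% and 13.9% of all genes. Kasumi-1 control 1 was the lowest control for 26 of 26 replication genes, and OGP46 sample 3 was the highest of its group for 23 of 26. Relative to the mean of the controls, the median of all genes was -0.04 in control 1 and 0.07 in OGP46 sample 3. For the replication genes it was -0.12 and 0.06. With the replicate block and no minimum change, none of the 50 genes had an adjusted p below 0.05, where 2.44% of all genes were higher and 1.12% were lower. With median centring added, 6 were lower, namely MCM7 (-0.31), CDT1 (-0.25), UHRF1 (-0.24), CDC20 (-0.20), TYMS (-0.19) and CDC45 (-0.17). By that rule, 2.97% of all genes were higher and 7.03% were lower.

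**Figure D4:**
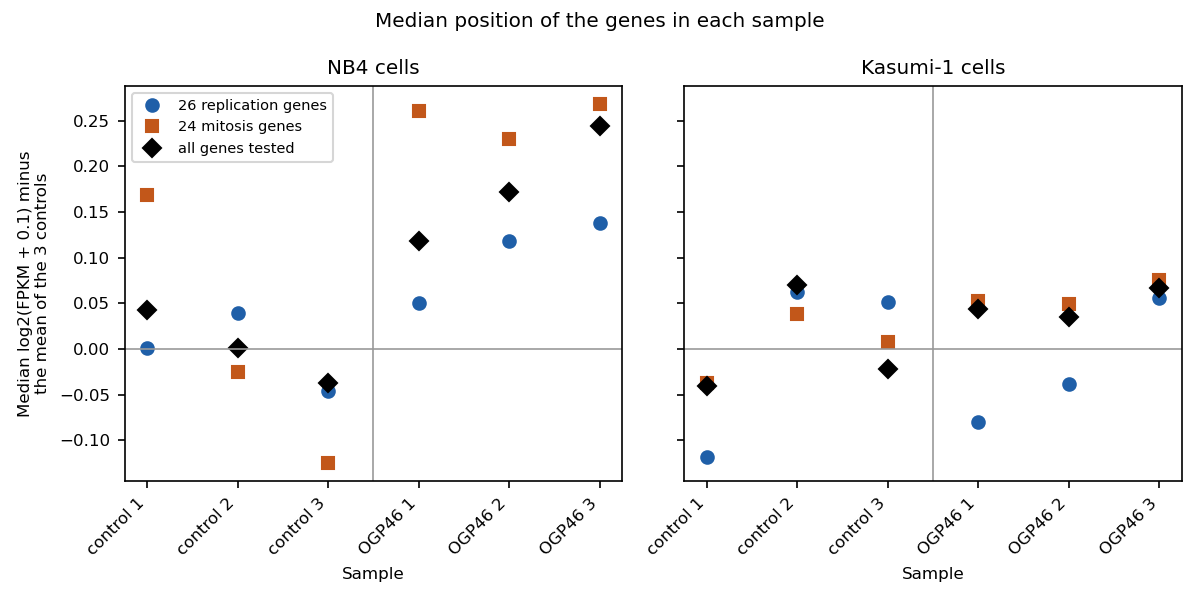
Median over the 26 replication genes, the 24 mitosis genes and all genes tested of log2(FPKM + 0.1) minus the mean of the 3 controls, in each sample of both lines. In NB4 cells the median of all genes lies at 0.12 to 0.24 with OGP46, with the mitosis genes above it and the replication genes below it in all 3 samples. NB4 control 1 shows the same order, at 0.17 for the mitosis genes, 0.04 for all genes and 0.00 for the replication genes. The mitosis genes lie 0.17 above the replication genes in that control, and 0.21, 0.11 and 0.13 above them in OGP46 samples 1, 2 and 3.

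The change with OGP46 did not pass the test of a difference between the lines for any of the 50 genes. In the model of all 12 samples, 0% of 12309 genes had a higher and 0% a lower change in NB4 than in Kasumi-1 cells by limma at the same threshold. Without adjustment, 8 of the 50 genes had a p below 0.05, all with a higher change in NB4, beside 9.95% higher and 0.999% lower of all genes tested. The smallest adjusted p was 0.304, for UBE2C. UBE2C stood at 6.37, 6.87 and 6.5 FPKM in NB4 cells with OGP46 and at 32.7, 33.9 and 33.9 FPKM in Kasumi-1 cells with OGP46. Its change was 0.35 in NB4 and 0.00 in Kasumi-1 cells. The 95% interval of the difference reached past 0.58 for 6 of the 50 genes, with a highest limit of 0.76, so a larger increase in NB4 cells lay inside the interval for these. The interval stayed below 0.58 for the other 44, and for 8053 of all 12309 genes tested. With the replicate block, 172 of all genes had a higher and 13 a lower change in NB4 cells, with no gene of the 50 among them.

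Other genes of the same processes were taken from 3 further lists. Of 40 other replication genes and 48 other mitosis genes, none passed the threshold in either line, with or without the block. Their median changes relative to all genes in NB4 cells were -0.03 and 0.08, next to -0.07 and 0.08 for the 26 and 24 genes above. In Kasumi-1 cells they were 0.01 and 0.04, next to -0.09 and 0.00 for the 26 and 24 genes. There, 20 of the 40 other replication genes lay below the median of all genes, so the lower position of the 26 was not seen in them. TK1, the thymidine kinase of S phase, was the replication gene with the smallest adjusted p in NB4 cells, at 0.0364, with a log2 change of 0.49 that stayed under the minimum size. With the block and no minimum change, 22 of the 48 other mitosis genes and 2 of the 40 other replication genes were higher in NB4 cells. Of all genes, 21% were higher by this rule, as given above. With median centring added, 2 of the 48 were higher and 0 were lower, beside 5.95% and 6.49% of all genes. Of the 40, 1 was higher and 1 was lower.

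Of 37 genes that control the cycle, 34 were tested in NB4 cells. Beside 1.45% of all genes, 1 of the 34 was up-regulated, CDKN1A. It codes for p21, an inhibitor of the cyclin-dependent kinases. It stood at 1.77, 1.69 and 1.15 FPKM in the controls and at 6.07, 4.34 and 3.02 FPKM with OGP46, a 2.73-fold change (log2 1.45, 95% interval 0.86 to 2.04, adjusted p = 0.0364). Every value with OGP46 was above every control. This call was lost in 10 of 18 other settings, median centring (adjusted p = 0.156) and leaving out any sample but OGP46 sample 2 among them, and kept with the block (adjusted p = 2.57e-05). In Kasumi-1 cells CDKN1A stood at 3.18, 2.89 and 1.89 FPKM in the controls and at 3.28, 2.95 and 2.54 FPKM with OGP46, with a log2 change of 0.16 (95% interval -0.24 to 0.56).

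With the block, 5 of the 34 control genes were up-regulated and 0 were down-regulated in NB4 cells, beside 5.06% and 1.15% of all genes. With the block, median centring and no minimum change, 6 of the 34 were higher and 6 were lower, beside 5.95% and 6.49% of all genes. Besides CDKN1A, a further 4 control genes passed the threshold with the block alone. They were BTG2 (log2 1.58) and CCNG2 (log2 0.83), both known to slow the cycle, LIN37 (log2 0.68), a subunit of the DREAM complex that represses cell cycle genes in G0, and CDKN1C (log2 0.63), which codes for the inhibitor p57. Without the block their adjusted p were 0.222, 0.103, 0.0633 and 0.0991. BTG2 varied widely, from 0.78 to 8.40 FPKM with OGP46, and was too low to be tested in Kasumi-1 cells. CCND2, cyclin D2, which drives the passage through G1, stood at 17.1, 19.5 and 19.4 FPKM in the NB4 controls and at 13.0, 17.8 and 17.6 FPKM with OGP46. The log2 change was -0.22 (95% interval -0.52 to 0.08) in NB4 cells and -0.21 (95% interval -0.40 to -0.02) in Kasumi-1 cells, and neither passed the test (adjusted p = 0.283 and 0.28). With the block and median centring, the changes were -0.41 and -0.27 with an adjusted p of 0.00731 and 0.00951, under the minimum size, and with the block alone the adjusted p was 0.092 and 0.0791.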

How the data were processed

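The labels put 3 mRNA-seq samples in each of 4 groups of line and treatment. The authors deposited 1 FPKM value (fragments scaled by exon length and by the mapped fragments of the library) per gene symbol and sample. The submitters' processing notes name Trimmomatic, HISAT2, Cufflinks, HTSeq and hg38, without roles. Their versions, the annotation and the use of strand in counting are not given in the sources used here, so genes that overlap others, such as MCM7 and TYMS, are uncertain. As 632 values lie above 0 and below 1e-04, reads were estimated and not counted whole. Read depth is unknown, so the spread of 3 samples sets the precision and no counting interval is given. In each sample, 27 symbols turned into dates were left out.

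From the FPKM, log2(FPKM + 0.1) was compared with limma (3.58.1, under R 4.3.3), using moderated variances with a trend on the mean level. Genes entered when their mean over the compared samples reached 0.1 FPKM. A gene was called at a Benjamini-Hochberg adjusted p below 0.05, over all genes tested, and a log2 change of at least 0.58. The fits were tested on simulated data with independent noise, which held no pairing of samples and no shift of a whole sample. The simulation therefore does not cover the effect of either on these results. Each line was fitted on its own samples, the difference between the lines on all 12, and the controls on 6. Fold changes on this scale understate those of low genes. An exact permutation test of 3 against 3 cannot go below 0.1, so none was used.

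Same-numbered samples deviated together across genes, with r of 0.355, 0.622 and 0.197 in NB4 and 0.218, 0.157 and 0.395 in Kasumi-1 cells, every pair being over 0.1, so the numbers of the labels were taken to pair the samples. The highest r between samples of different numbers was 0.224 in NB4, above that of pair 3, and 0.101 in Kasumi-1 cells. The pairing comes from these correlations, since no source names it.

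The members and lists were chosen with earlier results of these data known. Named were members past the threshold, those with the lowest and highest change per line and group, the 5 largest differences of the controls in each direction, the 3 highest and 3 lowest levels, and of other lists the genes past the threshold, CDKN1A and CCND2. MKI67, RRM2, PCNA, CDK1, NUSAP1, E2F2, MCM6, E2F1, TOP2A, TK1 and the other genes named were added after their values were seen. Promoter windows and their coordinates come from RefSeq on GRCh38.p14.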

Additional observations from a re-analysis of the deposited data

How the results depend on the processing

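In none of the settings tried did any of the 50 genes pass the threshold for OGP46, in 20 alternatives in NB4 cells, 19 in Kasumi-1 cells and 25 for the difference between the lines. The interval of all 50 genes stayed above a decrease of 0.58 in every setting with an interval. The settings were a replicate block, pseudocounts of 1 and 0.01, no filter or a minimum mean of 1 FPKM, median centring, TPM scaling, quantile normalization, no trend, a joint model, the subtraction described below, no minimum change, an unadjusted p with the minimum change, and leaving out each sample. The count over all NB4 genes was less stable than that of the members. Up-regulated genes numbered 170 with all samples, 368 without OGP46 sample 2, 1 without control 2 or control 3, and 0 without control 1, OGP46 sample 1 or OGP46 sample 3.

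At an adjusted p below 0.05 with no minimum change, a count chosen after seeing the data, the number of members in NB4 cells was 0 as reported and 14 with the replicate block, the paired fit. It was 5 with the replicate block and median centring, 1 with a minimum mean of 1 FPKM and 16 in the joint model. Of all genes in NB4 cells, 289 were higher and 13 lower as reported. The shares were 21% and 1.88% with the block, and 5.95% and 6.49% with median centring added. No share of all genes is given for the minimum mean and the joint model, so their counts have no background. In Kasumi-1 cells the number of members was 6 with the block and median centring, all lower, beside 2.97% higher and 7.03% lower of all genes. The block moved no other count of members by over 1.5 times.

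The replication genes lay 0.074 below the median of all genes in NB4 cells, and 0.037, 0.033 and 0.031 below it with a pseudocount of 1, no filter and quantile normalization (-0.037, -0.033 and -0.031). Leaving out 1 sample gave -0.094 to -0.050. The mitosis genes in NB4 cells lay 0.009 to 0.137 above it when 1 sample was left out. In Kasumi-1 cells they lay at 0.013, 0.017 and 0.014 in the same 3 settings and at -0.023 to 0.013 when 1 sample was left out.

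Between the controls, 27 members were higher with TPM scaling, and 33 were higher and 6 lower with no minimum difference, beside 33.1% and 41.4% of all genes. Leaving out 1 sample gave 15 to 18 higher and 3 to 4 lower members. Of single genes, PCNA turned to -0.086 in NB4 cells with median centring, with or without the block, to -0.019 with TPM scaling and to -0.025 with quantile normalization. CCNA2 in NB4 cells ran from -0.096 to 0.007 and CDKN1A in Kasumi-1 cells from -0.058 to 0.304 when 1 sample was left out, and E2F2 in Kasumi-1 cells came to -0.001 with quantile normalization. The causes were not tested. The subtraction of signal of the other line was made in NB4 samples only, after seeing the data. It was not run in Kasumi-1 samples, because only 2 of the 4 NB4 markers were higher in NB4 controls.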
